A study of Rattus norvegicus with 10 samples.

Results

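Liver gene expression of rats fed fish oil was compared with that of rats fed olive oil. The comparison rests on 4 arrays, 2 per diet, out of the 10 arrays of the series, and was made over all 31042 non-control probe sets of the array. Every animal was a male Wistar rat, an outbred laboratory strain, that had eaten its diet for 12 weeks and had been fasted overnight before the liver was frozen. In both diets fat supplied 42% of the energy. The fat was olive oil in the one and fish oil in the other, which the series' design text calls cod liver oil, so the comparison asks what the source of fat changed at the same share of energy. The other 6 arrays came from rats fed lard, coconut fat (both also 42% fat) or standard chow, and served to estimate the spread between arrays and to place both oils. The labels call each array the liver of a rat without stating if several animals were combined, so a p-value here reflects only how far these arrays differ. The comparison cannot tell the fatty acids apart from other components in which the oils differ.

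Olive oil is rich in the monounsaturated oleic acid. Fish oil carries long-chain n-3 polyunsaturated fatty acids, and cod liver oil also brings vitamins A and D. In the liver, polyunsaturated fatty acids are known to activate the nuclear receptor PPAR-alpha, which switches on genes of mitochondrial and peroxisomal fatty acid oxidation, and to lower the activity of SREBP-1, a transcription factor that switches on fatty acid synthesis. Its relative SREBP-2 governs cholesterol synthesis. Peroxisomes shorten very long and polyunsaturated chains before mitochondria complete their oxidation.

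Signal is the MAS5 intensity of a probe set on a linear scale, on which every array had a trimmed mean of 100. After dim probe sets were left out, 18625 were tested. The 2 fish oil arrays correlated with each other at r = 0.943 across these probe sets and the 2 olive oil arrays at 0.934, while arrays of the 2 diets correlated at 0.922 to 0.930. In the series as a whole the 2 kinds of pair overlapped, with 0.934 to 0.949 within a diet and 0.922 to 0.949 between diets. The median signal was 28.7 and 30.3 on the fish oil arrays and 30.6 and 31.9 on the olive oil arrays. The ratio of the 3′ to the 5′ actin control, which grows as RNA is degraded, was 2.59 and 2.12 on the fish oil arrays and 2.5 and 2.75 on the olive oil arrays. The other 6 arrays ran from 2.1 to 2.37, so both olive oil arrays and the first fish oil array were above them. The same ratio of the GAPDH control was 1.1 and 1.19 on the olive oil arrays and 0.967 and 1.05 on the fish oil arrays. It ran from 0.959 to 1.05 on the other 6, so only the olive oil arrays were above the rest by both controls. The part of RNA quality in the results was not tested. The 9 hepatocyte markers tested had a median log2 difference of -0.06 between the diets and a summed signal of 61642 to 64346 with fish oil and 60110 to 69732 with olive oil, so the tissue carried the markers its label calls for. In whole liver, fewer cells of a type and less RNA per cell cannot be told apart.

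With fish oil, 46 probe sets were higher and 23 lower than with olive oil (limma, adjusted p under 0.05), which are 0.247% and 0.123% of those tested. At an unadjusted p under 0.05 there were 2201, or 11.8%. Log2 differences, written as fish oil minus olive oil on the log2(signal + 3.1) scale, ran among the called probe sets from 0.88 to 4.83 upward and from -0.73 to -4.04 downward, and understate the change of dim genes. The median over all probe sets was -0.03. The 2 fish oil arrays did not overlap the 2 olive oil arrays in any of the 69, which was also true of 18.8% (fish oil above) and 22.1% (fish oil below) of all probe sets tested. The call itself favours such a gap. A single gene symbol was carried by 39 of the 46, for 37 genes, and by 17 of the 23, for 14 genes. Probe sets that match several genes are counted but not named. The call was close for F11r (adjusted p = 0.0499), just inside the threshold, and for Adh1c (1.33, adjusted p = 0.0504) and Cyp4a3 (1.00, adjusted p = 0.051), just outside it, in limma's test.

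**Figure D1:**
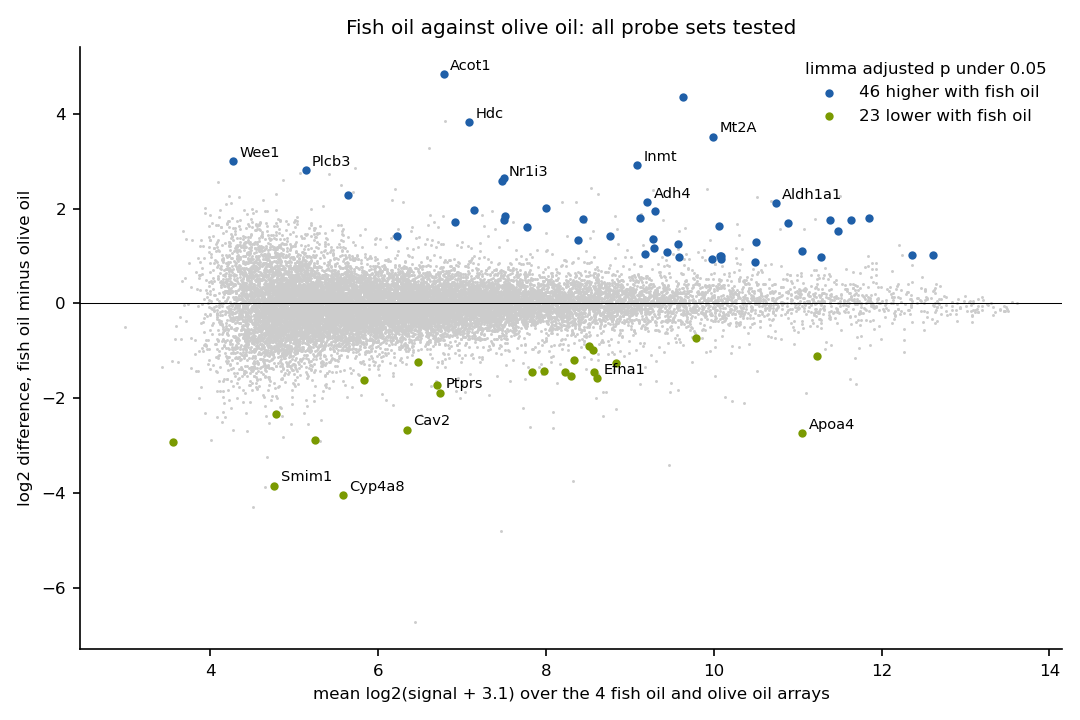
The log2 difference between fish oil and olive oil (vertical axis) against the mean log2(signal + 3.1) over the 4 arrays (horizontal axis), 1 point per probe set tested. The 46 probe sets called higher are blue, the 23 called lower are green and the others grey; the called points extend to 4.83 (Acot1) and to -4.04 (Cyp4a8).

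Several enzymes of fatty acid oxidation were higher with fish oil. Ehhadh, which catalyses a pair of steps in peroxisomal beta-oxidation, had signals of 7370 and 6385.6 on the fish oil arrays and 2237.9 and 1735.6 on the olive oil arrays. Both fish oil arrays lay above all 8 others of the series, and the log2 difference was 1.80 (SE 0.16, limma adjusted p = 0.00184). Acot1, a cytosolic thioesterase that frees fatty acids from coenzyme A, stood at 989.8 and 344.3 with fish oil and at 17.6 on each olive oil array. The fish oil arrays differed widely from each other, yet both were far above all 8 others (4.83, SE 0.56, limma adjusted p = 0.00731). Without the first fish oil array the difference of Acot1 was 4.07 and no longer passed.

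Peroxisomal genes beside Ehhadh passed as well. Pex11a, a membrane protein of peroxisome division, was at 621.5 and 803.3 against 284.1 and 242.2 (1.42, SE 0.25, limma adjusted p = 0.0398), while another probe set of the gene, at 1.94, missed the threshold (adjusted p = 0.0607). Decr2, the peroxisomal 2,4-dienoyl-CoA reductase needed to oxidise polyunsaturated chains, was at 2382.8 and 2147.3 against 1101.4 and 779 (1.29, SE 0.22, adjusted p = 0.0398). For both genes the groups lay apart, and both calls were lost when any 1 of the 8 high-fat arrays was left out. Of the 24 genes tested on the list of peroxisomal oxidation and peroxisome growth, 3 passed higher and 0 lower by limma, 12 higher and 0 lower had an unadjusted p under 0.05, and 21 had a difference above 0. Their median was 0.41, and 0.29 to 0.53 over the 4 pairs of 1 fish oil and 1 olive oil array. Against the mean of lard and coconut fat, it was 0.28 with fish oil and -0.20 with olive oil. Over all 10384 genes tested, each represented by its brightest probe set, the median was -0.01, with 0.308% called higher and 0.125% lower. Of these genes 5021 lay above 0 and 5363 below. At an unadjusted p under 0.05 by limma, 674 of them were higher and 677 lower.

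Of mitochondrial oxidation, 2 genes passed on their brightest probe set, both higher with fish oil. Counted by any of their probe sets, 3 genes of the list passed higher. Cpt2, which hands long-chain fatty acids back to coenzyme A inside the mitochondrion, was at 1039.8 and 982.4 with fish oil and at 486.9 and 462 with olive oil (1.09, SE 0.15, limma adjusted p = 0.0154). Eci1, an enoyl-CoA isomerase that lets unsaturated chains enter beta-oxidation, was at 5280.1 and 4579.8 against 1801.4 and 1152 (1.77, SE 0.30, adjusted p = 0.0374). In each gene both fish oil arrays were above all 8 others, and in Cpt2 both olive oil arrays were below all 8 others. Against the mean of lard and coconut fat, Cpt2 had 0.58 with fish oil and -0.50 with olive oil. Eci1 had 0.92 and -0.85, and none of these differences passed. The call of Eci1 was lost without any 1 of the 8 high-fat arrays and after quantile normalization, and that of Cpt2 without either fish oil array or the first olive oil array. Cpt1a, which controls the entry of long chains into mitochondria, overlapped between the diets, at 3909.4 and 1970.1 against 2615.2 and 2244.6 (0.20, limma adjusted p = 0.823). Of 21 mitochondrial genes tested, 2 passed higher, 20 lay above 0 and both fish oil arrays were above both olive oil arrays in 15, with a median of 0.50 that ran from 0.39 to 0.71 over the pairs of arrays. That non-overlap was found in 20.7% of all genes. Against the mean of lard and coconut fat, the list's median was 0.27 with fish oil and -0.18 with olive oil.

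Other PPAR-alpha targets were divided. Cyp4a1, a fatty acid omega-hydroxylase, was at 5813.2 and 5820.1 with fish oil and at 2371.5 and 1266.3 with olive oil (1.75, SE 0.30, limma adjusted p = 0.0393). It passed in 5 of the 10 fits with 1 array left out. Cyp4a8, of the same family, went the other way, at 17.1 and 3.8 with fish oil against 242.2 and 150.5 with olive oil, so that the fish oil arrays were far below every other array. One of them lay under 12.8, the highest signal of a bacterial control sequence taken as background (-4.04, SE 0.54, limma adjusted p = 0.0146). Leaving out the first fish oil array gave -4.81 for Cyp4a8 and leaving out the second gave -3.26. The second Cyp4a8 probe set had -2.46 without passing (adjusted p = 0.0852 by limma). Vnn1, a pantetheinase that responds to PPAR-alpha, was at 1034.1 and 715 against 271.8 and 90.7 without passing (2.43, adjusted p = 0.0779). It was picked once its values were known. Of 29 genes on this list, which also holds Acot1, 2 passed higher and 1 lower, with a median of 0.29 (0.22 to 0.45 over the pairs of arrays). Against the mean of lard and coconut fat, that median was 0.28 with fish oil and 0.06 with olive oil. Cyp4a1 had 0.99 and -0.76 there, neither past the threshold. In the 5 ketone body genes tested 0 passed by limma, 2 had an unadjusted p under 0.05, both higher, and Bdh2 had the largest difference, 1.39 (adjusted p = 0.167).

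**Figure D2:**
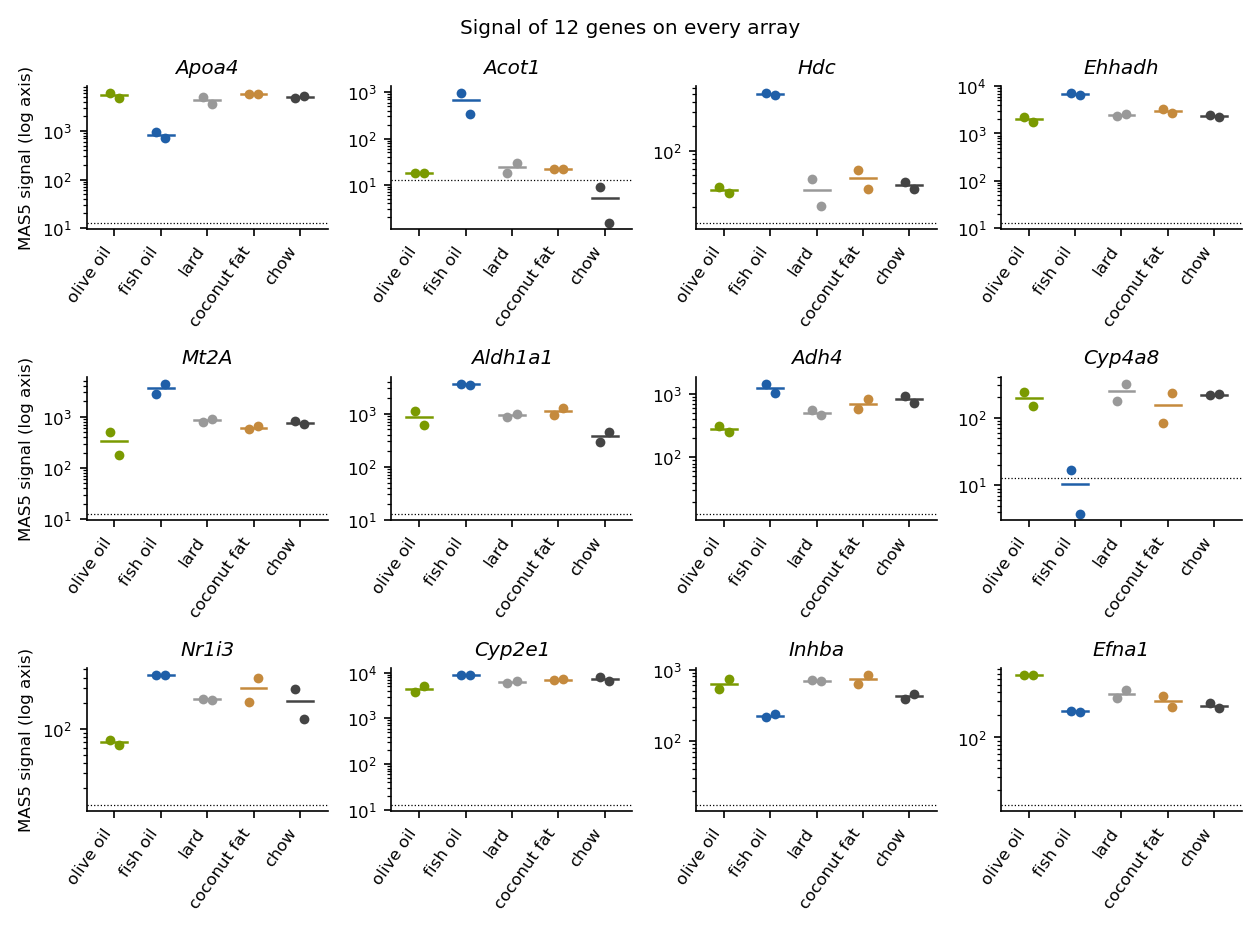
MAS5 signal (log axis) of 12 genes on each of the 10 arrays, 1 point per array, with a short line at the mean of the 2 arrays of a diet and a dotted line at the background bound of 12.8. The fish oil points (blue) lie apart from the olive oil points (green) in every panel; in Nr1i3, Mt2A and Efna1, among others, the olive oil points also lie outside the other diets.

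Apoa4, an apolipoprotein of triglyceride-rich particles, had the smallest adjusted p of the comparison. Its signals were 970.5 and 699.1 with fish oil and 6180.4 and 4841.2 with olive oil, and no array of another diet was below 3603.2. The gene was 6.62-fold lower with fish oil (-2.73, SE 0.20, limma adjusted p = 5.23e-04). It kept its call under each of 12 planned settings and whichever of the 10 arrays was left out. Apoa4 was the only one of 33 lipoprotein and lipid droplet genes tested that passed, and the median of that list was -0.14. Plin3, a lipid droplet coat protein, was at 131.4 and 71.8 against 268.9 and 309.3 without passing (-1.54, adjusted p = 0.0718). It too was picked once its values were known.

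Genes of fatty acid synthesis lay lower with fish oil than with olive oil, but 0 passed the test, and arrays of one diet differed widely. Pnpla3, a lipase of lipid droplets that SREBP-1 controls, had signals of 1.4 and 13 with fish oil and 373.4 and 2093.2 with olive oil (-6.71, SE 1.39, limma adjusted p = 0.0855), and neither of the other 2 Pnpla3 probe sets was called. The first fish oil array lay under the background bound of 12.8 and the second just above it, so the size of this difference depends on the offset; it ran from -7.94 to -5.47 over the settings and arrays left out. Fasn, fatty acid synthase, was at 59.6 and 753.4 against 1386.1 and 3788.4 (-3.40, adjusted p = 0.282). In both genes the groups did not overlap, while the first fish oil array was far below the second and the first olive oil array below the second. Acaca, which makes malonyl-CoA for the synthase, had 137.6 and 322.7 against 614.7 and 977.5 (-1.86, adjusted p = 0.163).

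Of 24 genes on the fatty acid synthesis list 0 passed by limma, 11 lower and 0 higher had an unadjusted p under 0.05, 20 were below 0 and the median was -1.03. Both fish oil arrays were below both olive oil arrays in 16, against 21.5% of all genes. The first fish oil array was below the second in 21 of the 24, and the first olive oil array below the second in 18. Over the 4 pairs of 1 fish oil and 1 olive oil array the list's median ran from -1.75 to -0.24, so that its size depended on which arrays were set against each other. Against the mean of lard and coconut fat, the list's median was -0.42 with fish oil and 0.72 with olive oil. Its summed signal was 11290 to 24530 with fish oil, 28579 to 43336 with olive oil and 11677 to 26400 with chow. Fish oil thus overlapped chow, and olive oil lay above both. Scd, the stearoyl-CoA desaturase, had -1.03 between the oils (adjusted p = 0.674).

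Cholesterol synthesis and uptake genes had a similar shape between the 2 oils. All 21 tested were below 0, with a median of -0.84 that ran from -1.25 to -0.26 over the pairs of arrays. Against the mean of lard and coconut fat, the median was -0.52 with fish oil and 0.32 with olive oil. The summed signal was 5501 to 9155 with fish oil, 11503 to 16505 with olive oil and 9063 to 16266 with chow. By limma 0 passed, and 9 lower and 0 higher had an unadjusted p under 0.05. Of all 10384 genes 5363 were below 0, and 677 lower and 674 higher had an unadjusted p under 0.05. Insig1, which holds back the activation of SREBPs and stands on both lists, was at 224.2 and 1406.9 with fish oil and 1658.1 and 2966.9 with olive oil (-1.97, limma adjusted p = 0.275). Cyp51, a demethylase of sterol synthesis, was at 264.2 and 482.9 against 821.8 and 1526.7 (-1.64, adjusted p = 0.127). Both fish oil arrays were below both olive oil arrays in these 2 genes and in 14 of the 21, against 21.5% of all genes.

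**Figure D3:**
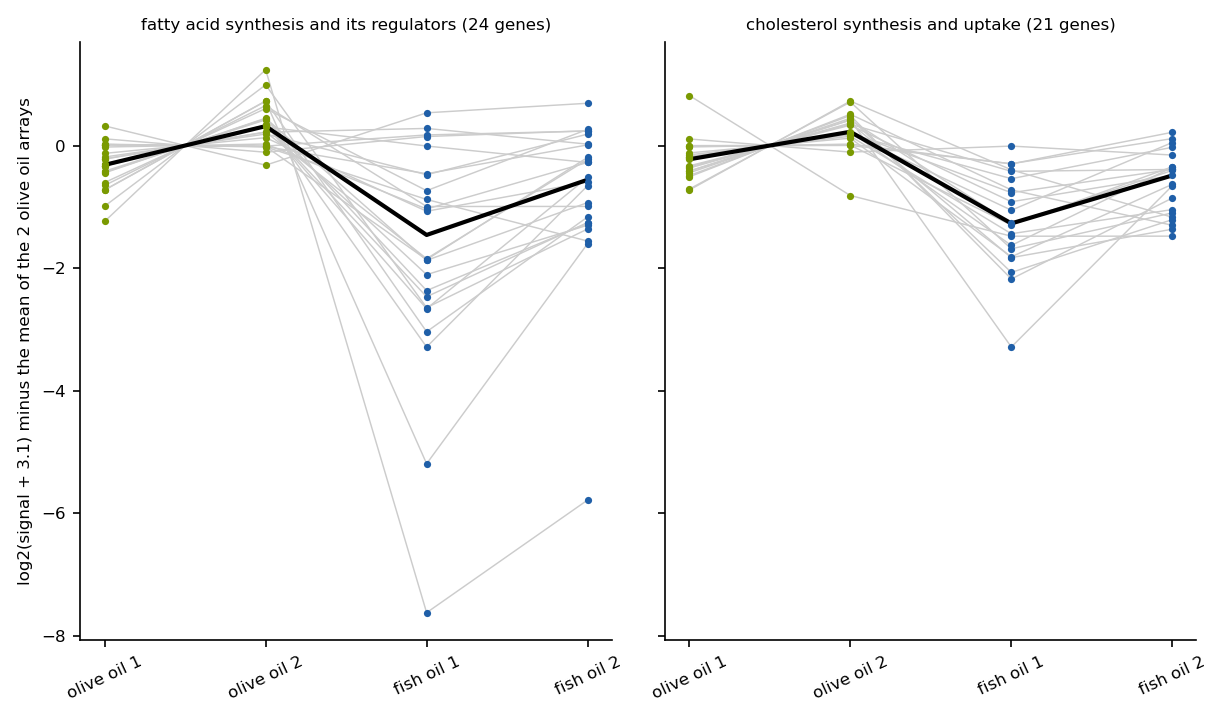
Genes of fatty acid synthesis (left, 24) and cholesterol synthesis (right, 21) on the 4 arrays, as log2(signal + 3.1) minus the mean of the 2 olive oil arrays, with 1 grey line per gene and the list's median in black. The fish oil points lie mostly below 0, the first fish oil array lower than the second, as for Fasn at 59.6 and 753.4.

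Of enzymes that act on retinoids, 3 were higher with fish oil. Adh4, which oxidises retinol as well as ethanol, was at 1471.8 and 1032.8 against 315.8 and 247.7 (2.13, SE 0.23, limma adjusted p = 0.00515). Aldh1a1, which turns retinaldehyde into retinoic acid, was at 3681.1 and 3417.8 against 1111.8 and 599.5 (2.11, SE 0.28, adjusted p = 0.0146). Dhrs4, a carbonyl reductase that accepts retinaldehyde, was at 1708.3 and 1381.1 against 706.1 and 821.1 (1.01, SE 0.15, adjusted p = 0.0179). In all 3 genes both fish oil arrays were above the other 8. Of 27 genes of retinoid metabolism tested these 3 passed, 0 passed lower, and the median was 0.02, close to that of all genes. Cyp26a1, which breaks down retinoic acid and responds to it, was at 52.8 and 36 against 35.8 and 18.2 without passing (0.70, limma adjusted p = 0.603).

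Of the drug-metabolising genes counted by a single symbol, 3 were higher, among them the receptor that governs many of the others. Nr1i3, the constitutive androstane receptor, was at 435.8 and 432.3 with fish oil and 74.3 and 65.3 with olive oil, while the other 6 arrays ran from 131.4 to 393.8. It was therefore outside their range with both oils, on opposite sides (2.59, SE 0.35, limma adjusted p = 0.0146). Cyp3a9, a P450 of the steroid- and drug-hydroxylating Cyp3a family, was at 1168.8 and 918.2 against 404.2 and 211.6 (1.81, SE 0.26, adjusted p = 0.0179), and at 2454.3 and 2309.2 with chow. Cyp2e1, a P450 that oxidises ethanol and ketone bodies, was at 8827.9 and 9108.6 against 3830.1 and 5044.9 (1.03, SE 0.16, adjusted p = 0.0237). Against the mean of lard and coconut fat, Cyp2e1 had 0.44 with fish oil and -0.59 with olive oil, neither past the threshold. The 24 genes of this list had 3 passed higher, 20 above 0 and a median of 0.22, which ran from 0.07 to 0.36 over the pairs of arrays. A called probe set that matches more than 1 P450 gene is not in this count. It was at 3363.4 and 3818.8 with fish oil and at 123.6 and 237.7 with olive oil (4.36, SE 0.63, limma adjusted p = 0.0179).

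A conjugating enzyme and a pair of esterases were higher as well. Nat8, an acetyltransferase of cysteine conjugates, was at 693.1 and 292.2 against 74 and 65 (2.65, SE 0.42, limma adjusted p = 0.0279). Ces2c was at 345.4 and 421.3 against 157.2 and 94.3 (1.62, adjusted p = 0.0275), and Ces1c at 7328.2 and 7661.5 against 3233.8 and 4207.6 (1.02, adjusted p = 0.0381); both are carboxylesterases, a family of close relatives. The groups lay apart in each. These 3 were the passed members of the 27 tested, of which 22 were above 0 with a median of 0.39. Of 37 glutathione and antioxidant genes, 29 were above 0 with a median of 0.36 that ran from 0.02 to 0.60 over the pairs of arrays, and Gstp1, a glutathione transferase, passed at 585.2 and 476 against 175.8 and 243.6 (1.34, SE 0.23, limma adjusted p = 0.0412). Gstp1 and Ces1c each passed in 5 of the 10 fits with 1 array left out. Gsta3 and Nqo1, both known targets of the oxidant-sensing factor Nrf2, had 3.84 and 1.88 without passing (adjusted p = 0.0985 and 0.1). They were chosen after their values were seen, as the largest differences of the list. Their fish oil arrays lay far apart, at 243.5 and 717.3 for Gsta3 and 739.7 and 1566.9 for Nqo1. Other members had smaller differences in both directions, such as Txnrd1 (0.66), Gclm (0.65), Slc7a11 (-0.09) and Hmox1 (-0.53), none of them called.

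Mt2A, a metallothionein that binds zinc and copper, was higher with fish oil. Its promoter, in rat genome build GRCr8 on the minus strand of chromosome 19 at chr19:10838659-10838958, is shown with that of its relative Mt1 at chr19:10832926-10833225, since metallothionein promoters are known to carry metal response elements. Sequences are from RefSeq and span 250 bases before to 50 after the gene's start, 5′ to 3′ along the gene. Capitals mark matches to the 7-letter core TGCACNC or TGCGCNC on either strand.
Mt2A: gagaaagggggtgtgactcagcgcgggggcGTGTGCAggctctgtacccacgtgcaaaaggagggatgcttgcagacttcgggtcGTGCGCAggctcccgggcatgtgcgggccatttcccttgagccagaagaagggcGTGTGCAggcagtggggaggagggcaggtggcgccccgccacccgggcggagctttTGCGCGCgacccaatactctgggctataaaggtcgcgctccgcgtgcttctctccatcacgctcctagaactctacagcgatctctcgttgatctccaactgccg
Mt1: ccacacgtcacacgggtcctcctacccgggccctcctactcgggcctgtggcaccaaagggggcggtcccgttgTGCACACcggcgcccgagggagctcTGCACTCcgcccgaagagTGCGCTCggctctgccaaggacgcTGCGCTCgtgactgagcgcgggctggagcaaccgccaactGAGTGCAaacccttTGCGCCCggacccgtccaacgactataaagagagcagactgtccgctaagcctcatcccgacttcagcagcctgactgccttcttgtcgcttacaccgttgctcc
The Mt2A window held 4 matches and the Mt1 window 6. Of all 27457 promoters of this length, 25% held at least 1 match and 0.455% at least 4. Among the called genes with a promoter in the table, 6 of 32 higher (18.8%) and 4 of 13 lower (30.8%) held at least 1. A match is a description of these letters and not evidence of a site in use.

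The signals of Mt2A were 2700.3 and 4412.2 with fish oil and 498.3 and 177.5 with olive oil. Both oils lay outside the range of the other 6 arrays, 574.2 to 896.5, on opposite sides (3.52, SE 0.37, limma adjusted p = 0.00497). The Mt1 probe set was at 42.4 and 142.8 against 39.3 and 24.9 and did not pass (1.24, adjusted p = 0.361). Of 12 metallothionein and zinc transporter genes tested, Mt2A alone passed, and the median was 0.01.

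Hdc, histidine decarboxylase, which makes histamine, was at 525.5 and 487.3 with fish oil and 35.8 and 30.4 with olive oil. The other diets ran from 21 to 57.5, so that only the fish oil arrays stood out (3.82, SE 0.35, limma adjusted p = 0.00223), and Hdc passed under every planned setting and without any 1 array. Gpt, alanine aminotransferase, was at 990 and 689.6 against 346.3 and 459.4 (1.04, SE 0.19, adjusted p = 0.045). Here the olive oil arrays were the ones outside the range of the rest, where chow reached 2003.5. The call of Gpt was lost with the replicate number as a block, after quantile normalization and in 8 of the 10 fits with 1 array left out. Aspg, an asparaginase, was lower with fish oil, at 172.3 and 132 against 387.6 and 437.2 (-1.43, SE 0.20, limma adjusted p = 0.0175). By the brightest probe set of each gene, these 3 passed among 55 genes of amino acid breakdown and the urea cycle, whose median was 0.08. Slc25a15, also on this list, had 0.12 on its brightest probe set and passed on another (1.16, limma adjusted p = 0.0275). Inmt, a methyltransferase of tryptamine and related amines, was at 923.3 and 2410.5 against 219.7 and 172.4 (2.92, SE 0.47, adjusted p = 0.0279), and at 2578.9 and 905 with chow, so fish oil overlapped chow.

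Several receptors and signalling proteins were lower with fish oil. Il1r1, the type 1 interleukin-1 receptor, was at 264.7 and 264.3 against 533.1 and 521.5 (-0.99, SE 0.16, limma adjusted p = 0.0275), while its other 2 probe sets, at -0.47 and -0.04, did not pass. Stat3, a transcription factor downstream of interleukin-6, was at 170.8 and 186.5 against 515.1 and 463.8 (-1.44, SE 0.24, adjusted p = 0.0374), and its second probe set had -0.92 without passing. In Stat3 the fish oil arrays were below and the olive oil arrays above all others. Cd14, the co-receptor for bacterial endotoxin, was higher instead, at 1186.8 and 1284.8 against 237.4 and 427.6 (1.94, SE 0.24, adjusted p = 0.0117), and near the chow arrays at 1100.3 and 1044.6. Il1r1 and Cd14 were the passed members among 19 genes of endotoxin sensing and interleukin-1 receptors, whose median was 0.07.

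Inhba, the subunit of activin A, was lower on both of its probe sets. On the first it was at 218.3 and 236.8 with fish oil and 537.7 and 734 with olive oil (-1.45, SE 0.19, limma adjusted p = 0.0146), and the second probe set had -1.61 (adjusted p = 0.0374). Efna1, a ligand of Eph receptors, was also lower on both, at 226.6 and 219.5 against 681.1 and 664.9 on the first (-1.58, SE 0.20, adjusted p = 0.0114) and by -1.19 on the second (adjusted p = 0.0479). The fish oil arrays were below all others on both Inhba probe sets and on the first of Efna1. For Efna1 the olive oil arrays were above all others on both probe sets, while on the second a coconut fat array, at 211.2, lay between the fish oil arrays at 211.5 and 209.6. Ptprs, a receptor-type tyrosine phosphatase, passed on 2 of 4 probe sets, with 44.4 and 61.4 against 175 and 230.7 on the first (-1.88, SE 0.22, limma adjusted p = 0.00828) and -1.44 on the second (adjusted p = 0.0155). Its other 2 had -0.78 and 0.26 and did not pass.

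Caveolin 2, Cav2, which helps form membrane caveolae, was at 24.6 and 34.4 against 332 and 120.8 (-2.66, SE 0.39, limma adjusted p = 0.0201), and its other 3 probe sets, between -0.95 and -1.85, did not pass. F11r, a tight junction adhesion molecule, was at 712.5 and 655.2 against 1171.9 and 1107.5 (-0.73, SE 0.13, adjusted p = 0.0499). Ak4, a mitochondrial adenylate kinase, was at 272.8 and 316.4 against 877 and 563.5 (-1.25, SE 0.20, adjusted p = 0.0289). In these 3 the fish oil arrays were the lowest of the 10. F11r lost its call without any 1 of the 8 high-fat arrays. Smim1, a small membrane protein that carries the Vel blood group in humans, was at or below background with fish oil, at 3.5 and 4.7 against 86.3 and 114.6, and was at least 7.77-fold lower (limma adjusted p = 0.0131). Rig1 had -0.90 (adjusted p = 0.0479) and Clec4a3, a C-type lectin of myeloid cells, -1.24 (adjusted p = 0.0499); the calls of both were lost with any 1 of the 10 arrays left out.

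Markers of immune cells were at lower signals with fish oil than with olive oil as well, without passing. All 15 macrophage and Kupffer cell markers tested were below 0, with a median of -0.46 (-0.70 to -0.11 over the pairs of arrays) and a summed signal of 4263 to 4535 with fish oil and 5543 to 6800 with olive oil. Over all 10384 genes, 5363 were below 0. By limma 0 of the markers passed and 4 lower had an unadjusted p under 0.05. Cd74, the chaperone of MHC class II molecules, was at 523.6 and 425.2 against 974.3 and 954.9 (-1.03, limma adjusted p = 0.0554). It is counted again among the MHC class II genes. Clec4f, which marks Kupffer cells in rodents, was detected with both diets, at 735.3 and 716.4 against 1163.9 and 775 (-0.39, adjusted p = 0.519).

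Of the 8 MHC class II genes 7 were below 0 with a median of -0.72 (-0.93 to -0.52 over the pairs of arrays), and their summed signal was 1226 to 1509 with fish oil and 2499 to 2560 with olive oil. RT1-Da was at 408.9 and 297.1 against 729.9 and 723.2 (-1.05, limma adjusted p = 0.0852), at 361 to 452.9 with lard or coconut fat and at 666.1 and 1015 with chow. By limma 0 of the 8 passed, with 2 lower at an unadjusted p under 0.05. Against the mean of lard and coconut fat, the MHC class II median was -0.09 with fish oil and 0.45 with olive oil. It was -0.34 and 0.06 for macrophage markers, -0.26 and 0.20 for lymphocyte markers and -0.55 and -0.12 for interferon-response genes. Lymphocyte markers, 12 tested, had a median of -0.62 (-0.58 to -0.36 within single pairs of arrays) and summed to 397 to 403 against 531 to 552. Of 26 interferon-response genes 23 were below 0 (median -0.46, and -0.82 to -0.13 over the pairs of arrays) and 0 passed by limma, with 6 lower at an unadjusted p under 0.05, among them Psmb8, an immunoproteasome subunit, at 235.6 and 225.5 against 730.2 and 584.4 (-1.49, adjusted p = 0.0852). The part of immune cells in the results on Il1r1, Clec4a3 and the interferon genes was not tested.

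**Figure D4:**
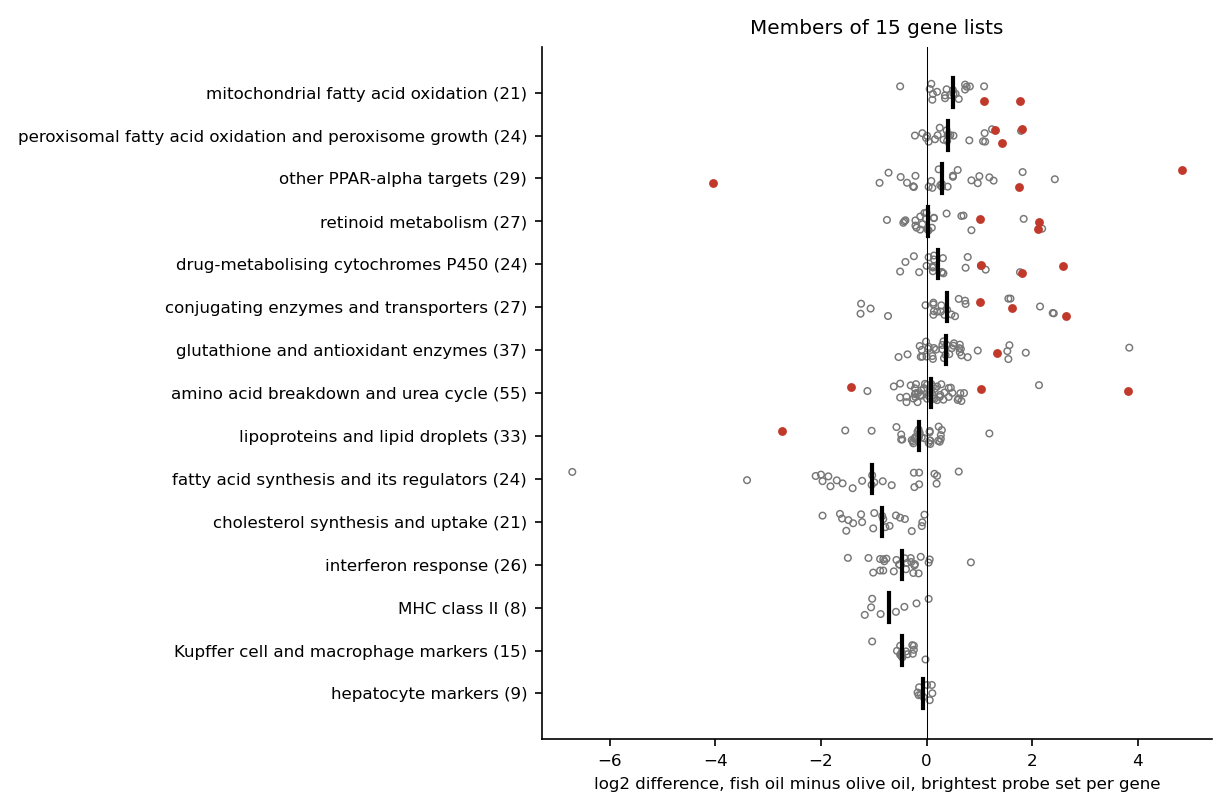
Log2 difference of every tested member of 15 gene lists (1 point per gene, brightest probe set, number tested in brackets), with the list's median as a black bar and genes that passed limma's test filled red. Medians lie at 0.50 for mitochondrial oxidation, -1.03 for fatty acid synthesis and -0.06 for hepatocyte markers; red points are few in every list.

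The remaining named genes belonged to no list. Plcb3, a phospholipase C that makes inositol trisphosphate, was at 91.1 and 88.9 with fish oil and, below the background bound, at 9.2 and 11.3 with olive oil. It was at least 7.03-fold higher with fish oil (limma adjusted p = 0.00497), and with 57 to 85.7 on the other 6 arrays it was the olive oil arrays that were apart by the wider gap. Wee1, a kinase that delays entry into mitosis, was at 63.9 and 41.2 against 4.5 and 3, at least 4.01-fold higher (adjusted p = 0.0397), with chow at 35.1 and 53.9. The second Wee1 probe set had 1.69 without passing (adjusted p = 0.116 by limma). The call on the first was lost without the dim filter and in fits to the 8 high-fat arrays or to the 4 arrays compared. Its difference ran from 2.16 to 3.78 over the settings and arrays left out. Ten1, a subunit of the telomere-binding CST complex, was at 304.1 and 253.2 against 61.6 and 75.3 (1.98, SE 0.21, limma adjusted p = 0.00497). Aig1, a hydrolase of fatty acid esters of hydroxy fatty acids, was at 403.5 and 293.3 against 84.6 and 102.2 (1.85, SE 0.30, adjusted p = 0.0289), and its second, dim probe set had -0.03. Mup5, one of the many near-identical major urinary proteins, was at 115.8 and 98.6 against 12.5 and 29.2 (2.29, adjusted p = 0.0225) and passed on a second probe set at 0.97 (adjusted p = 0.045). Signal on such probe sets may come from its relatives.

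Another 10 genes that passed higher were outside the rule for naming and are given after their values were seen. Among them were Acot2, a mitochondrial thioesterase (1.78 and 1.36 on 2 of 3 probe sets), and Hacl1, a lyase of peroxisomal alpha-oxidation (1.70). Adh5, an alcohol dehydrogenase (0.88), Adhfe1 (1.25) and Gcdh, of lysine breakdown (0.93), were also among them. The others were Hprt1 (0.94) and Gart (1.43) of purine metabolism, the stress-inducible Gadd45g (1.77), the mitochondrial ornithine carrier Slc25a15 (1.16, on 1 of 5 probe sets) and Enpp2, which makes lysophosphatidic acid (1.00).

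Both oils were then set against the mean of lard and coconut fat, the 2 other high-fat diets, to see on which side each gene had moved. These comparisons share arrays with the first and are not independent of it. Fish oil differed from the lard and coconut fat mean in 44 probe sets, 19 higher and 25 lower (0.236% of those tested), with 1888 at an unadjusted p under 0.05. Olive oil differed in 2 (0.0107%), Plcb3 at -2.38 and Gpt at -1.39 (limma adjusted p = 0.0293 for each), with 1174 at an unadjusted p under 0.05. Whether fish oil lies further from these diets than olive oil over all probe sets was not tested.

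Among the 15 genes named for the largest rise with fish oil, fish oil was above and olive oil below the lard and coconut fat mean in all 15. Choosing genes by their difference between the oils favours such opposite sides. Fish oil was further from it than olive oil in 8. Hdc had 3.67 with fish oil and -0.15 with olive oil (limma adjusted p = 7.82e-04 and 0.97), Aldh1a1 1.82 and -0.29 (0.0175 and 0.891). Nr1i3 had 0.77 with fish oil and -1.82 with olive oil, and neither passed (adjusted p = 0.425 and 0.286). Mt2A lay between these patterns, at 2.26 and -1.26 (adjusted p = 0.0262 and 0.547). For 6 of the 15 the fish oil difference passed, and for 1, Plcb3, the olive oil difference.

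Among the 14 lower ones the fish oil difference passed in 9 and the olive oil difference in 0, and fish oil was further from the mean in 12. Apoa4 had -2.58 with fish oil and 0.15 with olive oil (limma adjusted p = 2.09e-04 and 0.92), and Inhba -1.64 and -0.18 (adjusted p = 0.00316 and 0.898). Efna1 and Stat3 were the exceptions, with -0.58 and 1.00 for Efna1 and -0.70 and 0.73 for Stat3, none of them past the threshold. Of all 46 probe sets called higher, both fish oil arrays lay outside the other 8 in 39 and both olive oil arrays in 24, and of the 23 called lower in 21 and 5. Over all probe sets tested these shares were 8.06% for fish oil and 6.17% for olive oil. The called probe sets were selected for a gap between the 2 oils, which by itself favours arrays outside the others. The shares are therefore not a separate result.

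**Figure D5:**
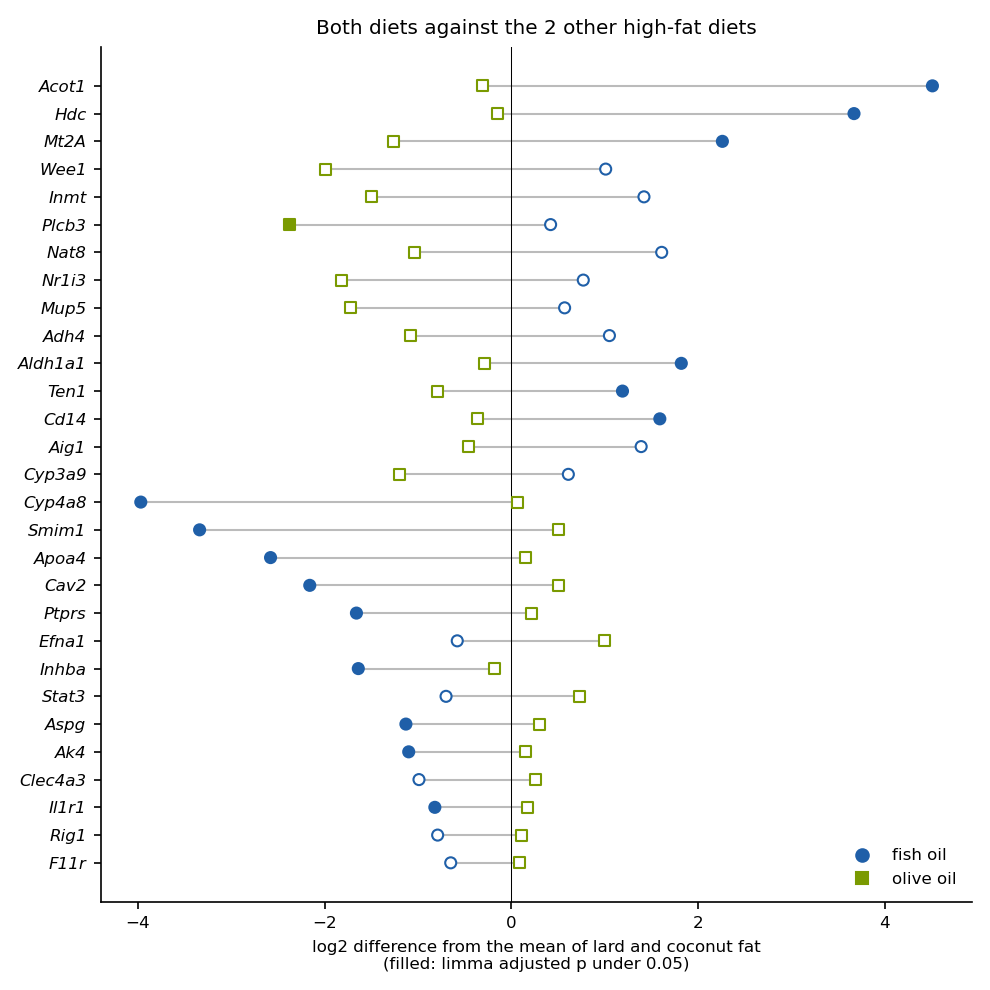
Log2 difference of fish oil (blue circles) and olive oil (green squares) from the mean of lard and coconut fat for the 29 genes named for their large difference, filled where limma's adjusted p was under 0.05. Acot1, Hdc and Apoa4 lie far from 0 with fish oil only, whereas Plcb3 lies at 0.42 with fish oil and -2.38 with olive oil.

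Of 11 pericentral genes, those most active near the central vein, 10 were above 0 with a median of 0.53 (0.14 to 0.82 over the pairs of arrays) and a summed signal of 22722 to 24961 with fish oil and 12824 to 16535 with olive oil. Cyp2e1 passed among them. Glul, the glutamine synthetase of the innermost layer, had 0.12 (limma adjusted p = 0.867). The 12 periportal genes had a median of -0.07, and 0 passed by limma, with 1 higher and 1 lower at an unadjusted p under 0.05. Medians were -0.15 for gluconeogenesis and glycogen, -0.04 for insulin and IGF signalling, 0.06 for endoplasmic reticulum stress, -0.03 for the circadian clock and 0.10 for the respiratory chain. By limma 0 of their 21, 23, 20, 14 and 32 members tested passed, with 11 higher and 12 lower in all at an unadjusted p under 0.05. Over all 10384 genes, 674 were higher and 677 lower at that threshold. Igfbp1, on both the gluconeogenesis and the insulin list, is counted on each (2.13, limma adjusted p = 0.302). Acute phase proteins had a median of -0.16, with 17 of 20 below 0, 0 passed, and 1 higher and 4 lower at an unadjusted p under 0.05. Fatty acid desaturases and elongases had a median of -0.13, bile acid genes of 0.17, immediate early genes of -0.14, activins and follistatin of -0.15 and caveolins of -0.35. Of the remaining cell type lists, endothelial markers had a median of 0.10, stellate cell markers of -0.00, cholangiocyte markers of 0.18, adipocyte markers of 0.08, red blood cell markers of -0.55 over 3 genes and the 1 neutrophil marker tested -0.77.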

How the data were processed

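The authors deposited 1 MAS5 signal intensity per probe set and array, on a linear scale and computed with MAS5, per the submitters' processing notes; no version of the software is stated there. Every array of the deposited table had a 2% trimmed mean signal of 100, so no further scaling was applied. Per the labels' protocols, biotin-labelled cRNA was made from total RNA of frozen liver. Raw scans were not used here.

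After 57 control probe sets were removed, the 31042 others were taken as log2(signal + 3.1), with an offset of 3.1, the 10th percentile of the whole table. The dimmest 40% by mean (12417, below a signal of about 17.8) were left out. In R 4.3.3, limma 3.58.1 estimated 1 mean per diet from the 10 arrays. Residual degrees of freedom were 5, to which the empirical Bayes step, run with an intensity trend, brought 5.96. Tests were two-sided, with Benjamini-Hochberg adjustment over all 18625 probe sets and a threshold of 0.05. The number of arrays limits the precision. Where neither array of a diet exceeded 12.8, the top signal among bacterial trp controls, the fold was given as a bound. Symbols came from the platform annotation: 20826 probe sets had 1 symbol, 436 several and 9780 none. The fit was tested on simulated data.

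Named genes were, in each direction, up to 15 with the largest difference among called genes with 1 symbol and no overlap of arrays, each by its probe set of smallest p, plus up to 4 called members of each list, or the 1 or 2 with the largest difference where none was called. Cpt1a, Acaca, Cyp26a1, Mt1, Clec4f, Glul and other genes said so in the text were chosen after their values were seen. The members and the 38 gene lists (26 pathway, 12 marker lists) were chosen with earlier results of these data known. No set test was run. Over all probe sets tested, same-numbered arrays of fish oil and olive oil did not deviate together (r = -0.01), and the main fit used no replicate block. Such a correlation cannot show how small groups of genes behave. The first array was below the second in 21 (fish oil) and 18 (olive oil) of 24 fatty acid synthesis genes. For 21 cholesterol genes the counts were 18 and 19, and for all 10384 genes 5079 and 5168. The reason was not tested.

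Alternatives were other scalings, offsets, dim filters and variance models, a threshold of 0.10, fits to fewer arrays, the replicate block, and each array left out in turn.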

Additional observations from a re-analysis of the deposited data

How the results depend on the processing

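The count of 69 probe sets for fish oil against olive oil fell to 5 when limma's variances had no intensity trend (1987 at an unadjusted p under 0.05) and grew to 149 at a threshold of 0.10. It ranged from 17 to 104 with 1 array left out: 34 without the first (13 higher, 21 lower) and 17 without the second fish oil array (14 higher, 3 lower), 27 and 104 when olive oil array 1 or 2 was dropped, and 42 and 40 for lard array 1 or 2. Arrays shifted to an equal 75th percentile gave 55 higher and 17 lower. The count of 44 for fish oil against lard and coconut fat became 4 without the trend and 72 at 0.10, and 12 to 51 with 1 array left out (12 and 13 without a lard, 14 and 25 without a coconut fat, 22 and 20 without a fish oil array). The count of 2 for olive oil became 0 without the trend (1165 at an unadjusted p under 0.05) and 0 on the 8 high-fat arrays (1124), and 0 to 13 with 1 array left out. With the replicate number as a block the counts were 71 and, for olive oil against lard and coconut fat, 1; 5 genes named by the rule, Wee1, Clec4a3, Rig1, F11r and Gpt, lost their call under the block. The arrays share only a number. The cause of these changes was not tested. The 29 genes with the largest differences all kept the sign of their difference under the 12 settings and 10 arrays left out. Hdc, Plcb3 and Apoa4 also kept their call throughout. The other 26 lost it without the trend, as did 18 when fish oil array 1 was dropped and 20 for array 2, and 17 and 10 for olive oil arrays 1 and 2. Of the 12 other called list members, all kept their sign, all lost the call without the trend, 5 after quantile normalization, 11 and 9 without fish oil array 1 or 2 and 9 and 5 without olive oil array 1 or 2; Ehhadh kept it whichever array was left out. Without olive oil array 1, 3 genes that had not passed changed sign. With 1 array left out, Rsad2 ranged from -2.26 to 0.07, Epcam from -0.12 to 0.68 and S100a9 from -1.56 to 0.03.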
